A study of Mus musculus with 11 samples.

Results

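Intermediate filament genes were followed in mouse cerebral cortex at postnatal day 30. The members are the rows of the deposited expression table with the symbols Nes, Vim, Gfap, Synm, Nefl, Nefm, Nefh and Ina, 8 of 16228 genes. All 8 passed the filter on low values, which left 14330 genes to test. The series asks how the kinases PRKCI and PRKCZ, paralogs of atypical protein kinase C, act in the oligodendrocyte lineage. RNA came from tissue punches of cortex, and the libraries are described as biological replicates, taken here as 1 animal each: 4 controls, 4 animals with genotype Ng2 Cre+ Prkci f/f (Prkci cKO) and 3 with genotype Ng2-Cre+ Prkcz f/f (Prkcz cKO), all labelled as untreated. Of the controls, replicates 1 and 2 carry the label Pkcz f/+, the other 2 carry Pkcz f/f, and neither label names Cre. Controls from the Prkci line or with Cre were not analysed here, so Cre and line cannot be told apart from the deleted kinase. Ng2-Cre is driven by regulatory sequence of Cspg4, a gene of oligodendrocyte precursors and also of pericytes, the contractile cells around capillaries. In which cells it recombined was not examined here.

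Intermediate filaments are rope-like polymers of the cytoskeleton that give cells mechanical strength, and each cell type builds them from its own set of subunits. Nestin (Nes) and vimentin (Vim) fill neural progenitors, and in the grown brain nestin stays on in endothelial and mural cells of vessels and vimentin in vessels and in some astrocytes. Glial fibrillary acidic protein (Gfap) is the main filament protein of astrocytes, and synemin (Synm) is a large subunit that assembles only together with others such as vimentin. Neurons use the light, medium and heavy neurofilament chains (Nefl, Nefm, Nefh) and alpha-internexin (Ina), which co-assemble in axons and help to set axon calibre.

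Depth, estimated from the smallest steps between values, lay between 14810000 and 28170000 reads per library, with Prkcz cKO replicate 3 the shallowest. At that depth Nes rested on about 115 to 449 reads per library and Vim on about 318 to 878. Replicates of a group correlated at r = 0.992 to 0.996 on the log2 scale. Prkci averaged 87.8 in controls and 67.0 in its own knockout (log2 change -0.39, limma adjusted p = 9.84e-04), and Prkcz averaged 323 in controls and 278 in its own knockout (-0.22, adjusted p = 0.0966). Genes of neurons and astrocytes were present throughout, with no gene of either list at 0 in any library.

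Nes and Vim differed between the knockouts, and sequence before an annotated start of each is shown because the results turn on them. Nes lies on chromosome 3 (87971078 to 87980451, plus strand, GRCm38; ENSMUSG00000004891.16). Vim lies on chromosome 2 (13573927 to 13582826, plus strand; ENSMUSG00000026728.9). Promoters of Nes, Vim, Gfap, Synm and Ina were matched in the RefSeq table used here. The first sequence covers the 235 bases before the annotated first exon of Nes at chr3:87970843-87971077, and the second 30 bases of Vim, from 40 to 11 bases before its RefSeq start, at chr2:13574271-13574300 (both GRCm38.p6, plus strand). The Vim window lies inside the gene positions given above, because the RefSeq start of Vim lies after the start of those positions. Capitals mark matches to the GC box GGGCGG on either strand in Nes, and to the TATA box TATAAA in Vim.
Nes: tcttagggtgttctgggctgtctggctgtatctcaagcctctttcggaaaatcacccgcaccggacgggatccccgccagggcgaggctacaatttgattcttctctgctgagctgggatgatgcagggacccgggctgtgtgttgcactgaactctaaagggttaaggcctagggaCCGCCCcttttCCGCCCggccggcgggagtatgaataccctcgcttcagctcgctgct
Vim: aacagtgtTATAAAagcagcgcccttggcg
In the 250 bases before the RefSeq start, Nes held 2 GC boxes, both on the opposite strand (CCGCCC). Nes held none of the other motifs searched on both strands, which were the TATA box TATAAA and the CCAAT box. The AP-1 site, written TGANTCA, was searched too. So was the E-box, written CANNTG, and neither Nes nor Vim held either of them. Vim held the TATA box and 2 CCAAT boxes, but no GC box. Of 32851 RefSeq windows of that length, 32.7% held a GC box, 33.9% a CCAAT box, 12.4% a TATA box, 6.75% an AP-1 site and 66.2% an E-box on either strand. The sequences of these genes thus shared none of the motifs searched, and a match describes letters, not a bound site.

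Levels were compared between genes only per kilobase of annotated exon, since long genes collect more reads. In controls the order was Nefl (90.3 ± 5.03 per kilobase, SD, n = 4), Nefm (67.3 ± 4.44), Ina (49.7 ± 1.38), Gfap (32.5 ± 2.62), Nefh (23.4 ± 1.91), Synm (7.14 ± 0.170), Vim (5.32 ± 0.432) and Nes (1.96 ± 0.251). The libraries of neighbours in this order did not overlap in controls. Prkci cKO and Prkcz cKO had the same order of means. Among these 8 genes, Nefl, Nefm and Ina thus had the highest levels per kilobase, Gfap stood above the heavy chain Nefh, and Vim and Nes had the lowest. The length used was the union of all annotated exons, 5.78 kb for Nefm and 3.38 kb for Nefl, and expressed transcripts may be shorter. Before division by length, Nefm was above Nefl in controls (means of 389 and 305).

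**Figure D1:**
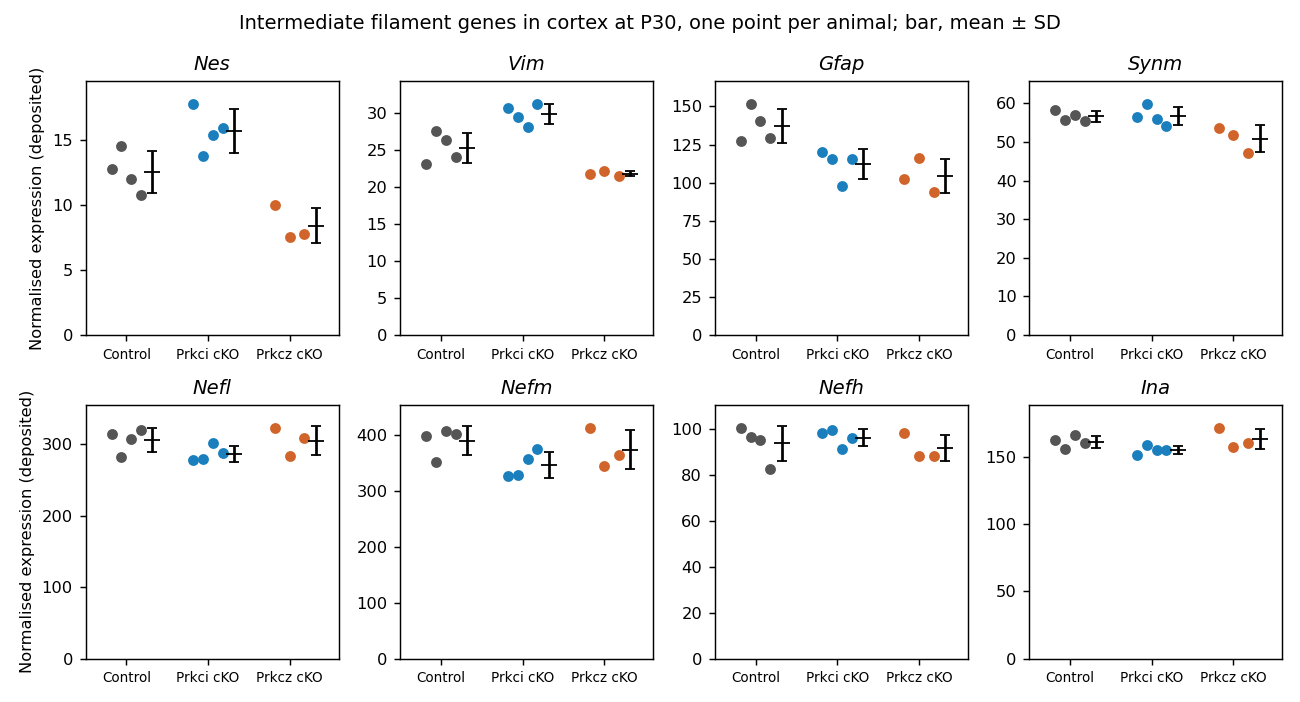
Deposited normalised expression of the 8 genes (vertical axes, starting at 0) in each animal of the 3 groups, with black bars for mean ± SD. All 4 Prkci cKO animals lie above all 3 Prkcz cKO animals for Nes and Vim, while the 4 neuronal genes overlap between all groups.

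The first comparison set the knockouts side by side. Nes and Vim had higher levels in the Prkci cKO animals than in the Prkcz cKO animals, and 0 of the 8 genes were called lower. Nes was 17.8, 13.8, 15.4 and 15.9 in Prkci cKO replicates 1 to 4 and 10, 7.55 and 7.79 in Prkcz cKO replicates 1 to 3. Every Prkci cKO animal was above every Prkcz cKO animal, and the means were 15.7 ± 1.66 (SD, n = 4) and 8.45 ± 1.35 (SD, n = 3). The log2 difference was 0.86 (SE 0.120, 95% interval 0.61 to 1.12, limma adjusted p = 0.00890).

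Vim was 30.7, 29.4, 28.03 and 31.2 in Prkci cKO and 21.7, 22.2 and 21.5 in Prkcz cKO, again without overlap. Its means were 29.8 ± 1.40 (SD, n = 4) and 21.8 ± 0.350 (SD, n = 3), and the log2 difference was 0.44 (SE 0.068, 95% interval 0.30 to 0.59, limma adjusted p = 0.0139). The calls were 2 of 8 genes, both higher, against a background of 0.3% of 14330 genes called in either direction and 0.237% called higher. The Nes call held in each of 23 alternatives. Vim lost its call without Prkci cKO replicate 1, 2 or 4 (adjusted p = 0.0647, 0.0506 and 0.0570) or without Prkcz cKO replicate 3, the shallowest library (0.0678), with a log2 difference of 0.42 to 0.47 over all alternatives.

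Synm, the partner subunit, also had groups that did not overlap. It was 56.4, 59.8, 56.0 and 54.3 in Prkci cKO and 53.7, 51.9 and 47.1 in Prkcz cKO. Its log2 difference of 0.15 (SE 0.055, 95% interval 0.04 to 0.27) did not pass (limma adjusted p = 0.231), and 13.8% of all genes tested had groups without overlap in this comparison, against 3 of the 8. Gfap had a log2 difference of 0.11 (95% interval -0.08 to 0.29, adjusted p = 0.553), with overlapping groups.

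Against controls, the same genes lay on opposite sides, but no member passed the threshold in either comparison. Controls had Nes at 12.8, 14.6, 12.1 and 10.8 in replicates 1 to 4, a mean of 12.6 ± 1.61 (SD, n = 4), between the knockouts. In Prkci cKO the log2 change of Nes was 0.32 (SE 0.111, 95% interval 0.08 to 0.55, limma adjusted p = 0.238), with 3 of 4 animals above every control. In Prkcz cKO it was -0.55 (SE 0.120, 95% interval -0.80 to -0.29, adjusted p = 0.0571), with all 3 animals below every control. Both comparisons use the same 4 control animals. Without Control replicate 4 or Prkcz cKO replicate 1 the Prkcz cKO value passed (-0.62 and -0.67, adjusted p = 0.0494 and 0.0310).

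Controls of the 2 labels also differed in Nes, with means of 13.7 in the 2 Pkcz f/+ animals and 11.4 in the 2 Pkcz f/f animals. Against the f/f animals alone the log2 changes were 0.44 in Prkci cKO and -0.42 in Prkcz cKO, and neither passed (adjusted p = 0.131 and 0.228).

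Vim was 23.1, 27.5, 26.4 and 24.0 in controls, with a mean of 25.2 ± 2.05 (SD, n = 4). All 4 Prkci cKO animals were above this range and all 3 Prkcz cKO animals below it. The log2 changes were 0.24 (SE 0.063, 95% interval 0.10 to 0.38, limma adjusted p = 0.0844) in Prkci cKO and -0.20 (SE 0.068, 95% interval -0.35 to -0.06, adjusted p = 0.194) in Prkcz cKO. The means of both control labels were 25.3 and 25.2.

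Gfap, the astrocyte gene, was on the same side of controls in both knockouts. It was 128, 152, 140 and 129 in controls, 120, 116, 97.6 and 115 in Prkci cKO and 103, 116 and 93.9 in Prkcz cKO. Every control lay above every knockout animal, and the means were 137 ± 11.1 (SD, n = 4), 112 ± 10.003 (SD, n = 4) and 104 ± 11.3 (SD, n = 3). The log2 change was -0.29 (SE 0.079, 95% interval -0.46 to -0.12, limma adjusted p = 0.1001) in Prkci cKO and -0.40 (SE 0.086, 95% interval -0.58 to -0.21, adjusted p = 0.0558) in Prkcz cKO. The Prkcz cKO value passed in 3 of 24 alternatives, among them without Prkci cKO replicate 3 (adjusted p = 0.0338), which leaves its size as it was. Gfap lies on chromosome 11 (102887336 to 102900912, minus strand), and its gene body is crossed by the gene model Gm26668 on the other strand.

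Synm (chromosome 7, 67730160 to 67759742, minus strand) was 58.4, 55.8, 56.9 and 55.4 in controls, a range that overlapped Prkci cKO and lay above all 3 Prkcz cKO animals. Its log2 change was 0.00 (95% interval -0.11 to 0.11, adjusted p = 0.999) in Prkci cKO and -0.15 (SE 0.055, 95% interval -0.27 to -0.04, limma adjusted p = 0.221) in Prkcz cKO. Without Prkcz cKO replicate 3, the shallowest library and the lowest for Synm, that value was -0.0998 and the difference between the knockouts 0.10. Groups without overlap were found for 2 of the 8 genes in Prkci cKO against controls (Vim and Gfap; 8.49% of all genes tested) and for 4 in Prkcz cKO (Nes, Vim, Gfap and Synm; 11.9%). In these comparisons 0 of the 8 genes were called, where 1.61% and 0.649% of all genes tested were. At an unadjusted limma p of at most 0.05 there were 4 in each, against 12.1% and 15.0% of all genes tested. The median log2 change of the 8 genes was -0.03 in Prkci cKO, -0.11 in Prkcz cKO and 0.09 between the knockouts, where all genes tested had medians of 0.00, -0.01 and -0.01.

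**Figure D2:**
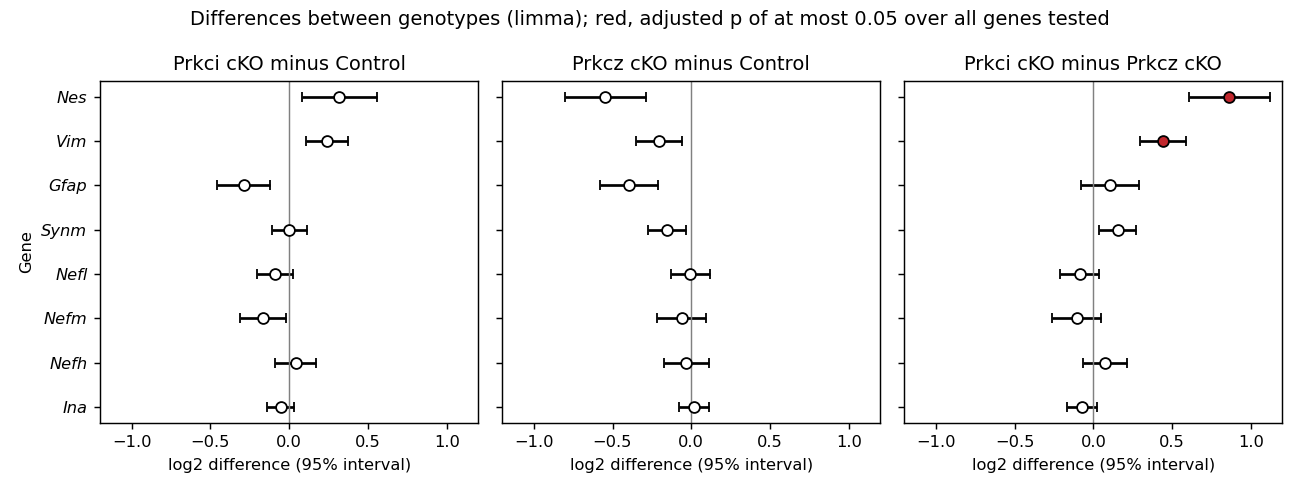
Log2 differences of the 8 genes with 95% intervals (horizontal axes) in the 3 comparisons, from one limma fit; filled red points passed an adjusted p of 0.05 over all genes tested. Only Nes (0.86) and Vim (0.44) between the knockouts are filled. The neuronal gene farthest from 0 is Nefm in Prkci cKO against controls (-0.17, 95% interval -0.31 to -0.02).

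The neuronal subunits varied little. Nefl (chromosome 14, 68083863 to 68089095) was 314, 281, 307 and 319 in controls, 277, 279, 302 and 287 in Prkci cKO and 322, 282 and 308 in Prkcz cKO. These ranges overlapped, and the log2 changes against controls were -0.09 (95% interval -0.21 to 0.02, limma adjusted p = 0.542) and -0.01 (-0.13 to 0.12, adjusted p = 0.973). Nefm had the widest difference of the 4 in Prkci cKO: 398, 351, 406 and 401 in controls against 327, 327, 357 and 374 in Prkci cKO, a log2 change of -0.17 (SE 0.067, 95% interval -0.31 to -0.02) that did not pass (limma adjusted p = 0.323). In Prkcz cKO it was 412, 343 and 364, with a log2 change of -0.06 (-0.22 to 0.09, adjusted p = 0.711). The Nefm and Nefl genes are neighbours, and the Nefm gene model, on the other strand, shares 1108 bases of exon with Nefl, so that without a known strand setting their reads may be split between them.

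Nefh, the heavy chain (chromosome 11, 4938754 to 4948064), was 93.6 ± 7.64 in controls (SD, n = 4), 96.2 ± 3.57 in Prkci cKO (SD, n = 4) and 91.4 ± 5.61 in Prkcz cKO (SD, n = 3). Its log2 changes were 0.04 (95% interval -0.09 to 0.17) and -0.03 (-0.17 to 0.11), and Control replicate 4 was its lowest library at 82.6. Ina (chromosome 19, 47014698 to 47025327) was 161 ± 4.47, 155 ± 3.14 and 163 ± 7.46 in the same groups, with changes of -0.06 (-0.14 to 0.03) and 0.02 (-0.08 to 0.11). Ina shares 456 bases of exon with Nt5c2 on the other strand. Across the 3 comparisons, the intervals of the 4 neuronal genes lay within -0.31 and 0.21 on the log2 scale.

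The make-up of the neuronal set was also close. Of the summed level per kilobase of the 4 subunits, Nefl made up 39.1% ± 0.903 in controls, 39.1% ± 0.813 in Prkci cKO and 39.5% ± 0.723 in Prkcz cKO (SD, n = 4, 4 and 3). The share of Nefm was 29.1% ± 0.760, 27.6% ± 1.17 and 28.3% ± 0.776, and that of Nefh 10.2% ± 0.989, 11.1% ± 0.680 and 10.1% ± 0.276. Ina made up the rest, 21.5% to 22.1% on average. These shares depend on the exon lengths used.

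Ratios between subunits were tested per library, 6 ratios in 3 comparisons, with an exact two-sided permutation test. With 4 against 3 libraries the smallest exact p is 0.0571, and with 4 against 4 it is 0.0286, so after Benjamini-Hochberg adjustment over the 18 tests no ratio could pass 0.05 at these group sizes. The ratios are therefore given as values. The ratio of Gfap to Vim reached the latter: its log2 value was 2.42 ± 0.0262 in controls and 1.89 ± 0.0832 in Prkci cKO (SD, n = 4 each), a difference of -0.53 without overlap (exact p = 0.0286, adjusted p = 0.147). In Prkcz cKO it was 2.23 ± 0.131 (SD, n = 3), also below every control. The 3 ratios of Nefm, Nefh and Ina to Nefl overlapped between the groups in every comparison, with differences of -0.08 to 0.16. Between the knockouts, Prkci cKO minus Prkcz cKO, Vim to Nes differed by -0.42 and Synm to Nes by -0.71, both without overlap. Against controls, Vim to Nes overlapped in Prkci cKO (-0.08) and in Prkcz cKO (0.34). Synm to Nes overlapped in Prkci cKO (-0.32) but not in Prkcz cKO (0.39).

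Among animals of one genotype, Vim and Gfap varied together. After group means were removed, they correlated at r = 0.79 over 11 libraries (exact permutation within groups p = 0.00174, adjusted p = 0.0486 over 28 pairs; Spearman's rho = 0.74, p = 0.00405, adjusted p = 0.113). Without the 2 libraries farthest from the median of Vim, r was 0.75. It was the only one of the 28 pairs that passed, and no pair passed when any library other than Prkci cKO replicate 4 was left out. Nefl and Nefm had r = 0.86 (exact permutation p = 0.00781, adjusted p = 0.0972; rho = 0.77, p = 0.0237, adjusted p = 0.175; r = 0.72 without the 2 farthest libraries). Gfap and Nefl had r = -0.84 (exact permutation p = 0.0104, adjusted p = 0.0972; rho = -0.86, p = 0.0116, adjusted p = 0.162; r = -0.90 without the 2 farthest libraries). Nes and Vim, which both differed between the knockouts, had r = 0.39 within groups (exact permutation p = 0.286, adjusted p = 0.666). Their rho was 0.32 (exact permutation p = 0.413, adjusted p = 0.889), and r was 0.20 without the 2 farthest libraries.

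**Figure D3:**
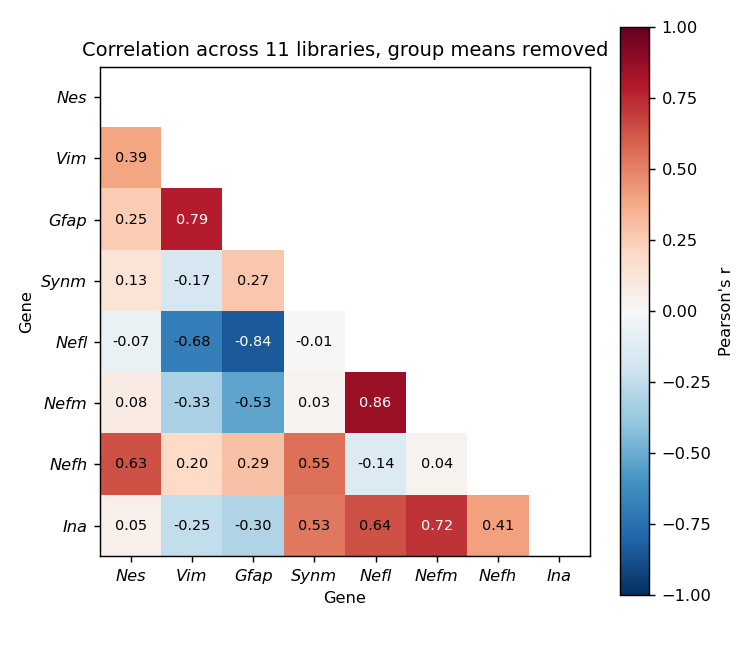
Pearson's r between each pair of the 8 genes across the 11 libraries, on log2 values with group means removed (colour scale from -1 to 1). The highest values are Nefl with Nefm (0.86) and Vim with Gfap (0.79), and the lowest is Gfap with Nefl (-0.84).

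Summed endothelial markers had the same order of groups as Nes and Vim. The summed level of 25 endothelial genes was 584 to 643 in Prkci cKO, 511 to 580 in controls and 429 to 444 in Prkcz cKO, with no overlap between any of the groups. At an unadjusted limma p of at most 0.05 against controls there were 9 in Prkci cKO and 19 in Prkcz cKO. Of all genes tested, 12.1% and 15.0% had such a p. In Prkcz cKO 25 of the 25 had values below 0, as did 51.8% of all genes tested. After adjustment, 0 of the 25 were called in Prkci cKO and 3 fell in Prkcz cKO, where 1.61% and 0.649% of all genes tested were called. The count of 3 was 1 without Control replicate 1, 2 or 3, Prkci cKO replicate 1 or 2 or Prkcz cKO replicate 3. Between the knockouts 0.237% of all genes tested were called higher. Of the 25 endothelial genes 9 were higher and 0 lower, with a median log2 difference of 0.37 where all genes tested had -0.01. That count was 3 without Prkci cKO replicate 1, 5 without Prkcz cKO replicate 3 and 6 without Prkci cKO replicate 2. The VEGF receptors Flt1 and Kdr differed by 0.68 (SE 0.071, limma adjusted p = 0.00140) and 0.92 (SE 0.119, adjusted p = 0.00840). Cd93 and Ptprb, membrane proteins of endothelium, differed by 0.82 and 0.66. No endothelial marker was at 0 in any library. In bulk tissue, fewer cells of a type and less RNA per cell cannot be told apart.

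The list of pericytes and smooth muscle had summed levels of 245 to 285 in Prkci cKO, 247 to 282 in controls and 207 to 229 in Prkcz cKO, so that Prkci cKO overlapped controls and did not follow Nes and Vim there. Against controls, 2 of its 20 tested genes in Prkci cKO and 13 in Prkcz cKO had an unadjusted limma p of at most 0.05. Of all genes tested, 12.1% and 15.0% had such a p. In Prkcz cKO 18 of the 20 had values below 0, as did 51.8% of all genes tested. After adjustment, 1 fell in Prkci cKO and 2 in Prkcz cKO, where 1.61% and 0.649% of all genes tested were called. Mcam was lower in both (-0.89 and -0.67, limma adjusted p = 0.00226 and 0.0353), and Rgs5 in Prkcz cKO (-0.39, adjusted p = 0.0197). The count of 2 was 0 without Control replicate 1 or Prkcz cKO replicate 2 or 3, and 1 without Control replicate 2, Prkci cKO replicate 1 or 2 or Prkcz cKO replicate 1. Of all genes tested, 0.237% were called higher between the knockouts. Of the 20 tested pericyte and smooth muscle genes, 2 were higher there (1 without any one of the 4 Prkci cKO replicates). These were Rgs5, a pericyte regulator of G-protein signalling (0.44, adjusted p = 0.00890), and Myl9, a myosin light chain of contractile cells (0.68, adjusted p = 0.0294). Relative to the endothelial sum, Vim overlapped between the knockouts, at 4.96% ± 0.418 of that sum in Prkci cKO and 4.97% ± 0.170 in Prkcz cKO (SD, n = 4 and 3). Nes did not overlap, at 2.35% to 2.97% in Prkci cKO and 1.75% to 2.26% in Prkcz cKO, while controls were at 2.02% to 2.68%. Relative to the sum of pericytes and smooth muscle, Nes was 5.48% to 7.25% in Prkci cKO and 3.30% to 4.82% in Prkcz cKO, without overlap. Relative to the sum of an astrocyte list, Vim did not overlap either, at 0.264% to 0.289% and 0.214% to 0.241%. The list of fibroblasts and meninges had 0 of 16 genes called in any comparison. Its sums overlapped between all groups, at 686 to 796 in Prkci cKO, 405 to 878 in controls and 627 to 715 in Prkcz cKO. Between the knockouts its median was 0.29, with 0 of the 16 below 0, where 51.5% of all genes tested were. Unadjusted limma p was at most 0.05 for 5 of the 16, against 16.0% of all genes tested. The parts of vascular and meningeal content in the differences of Nes and Vim were not tested.

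**Figure D4:**
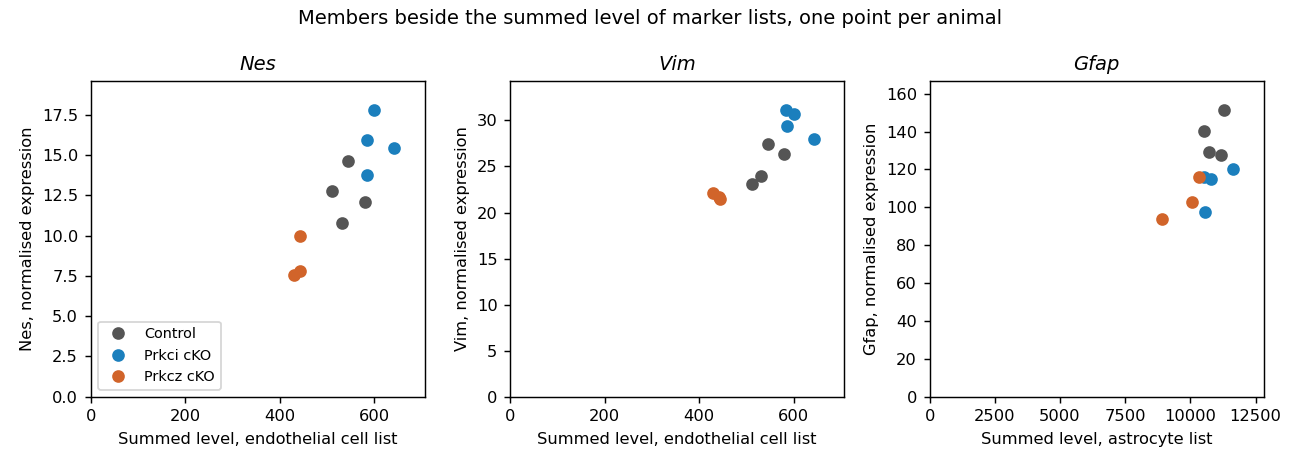
Expression of Nes, Vim and Gfap in each animal (vertical axes) against the summed level of the endothelial or astrocyte marker list in the same library (horizontal axes, both from 0). The 3 Prkcz cKO animals have the lowest endothelial sums (429 to 444) together with the lowest Nes and Vim; knockout animals lie below the controls for Gfap, including those whose astrocyte sum is within the control range.

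As a sum, other markers of astrocytes did not follow Gfap in each group. The summed level of 25 astrocyte genes was 10532 to 11304 in controls, 10513 to 11642 in Prkci cKO and 8909 to 10341 in Prkcz cKO. Gfap itself is not in that sum. Relative to the sum it was 1.26% ± 0.0975 in controls, 1.03% ± 0.0774 in Prkci cKO and 1.07% ± 0.0524 in Prkcz cKO (SD, n = 4, 4 and 3). By this measure both knockouts lay below every control. In Prkci cKO the transcriptional regulator Id4 was the 1 of 25 called lower (-0.32, limma adjusted p = 0.0422). In Prkcz cKO it was Aqp4, the water channel of astrocyte endfeet (-0.46, adjusted p = 0.0354). The first count was 0 without any one of the 4 controls, Prkci cKO replicate 2, 3 or 4 or Prkcz cKO replicate 2. The second was 0 without Control replicate 2, 3 or 4, Prkci cKO replicate 2 or Prkcz cKO replicate 2 or 3. Against controls, 17 of the 25 had values below 0 in Prkci cKO and 23 in Prkcz cKO. For all genes tested these shares were 49.1% and 51.8%, and 1.61% and 0.649% were called. An unadjusted limma p of at most 0.05 was found for 4 and 7 of the 25, and for 8 between the knockouts. Of all genes tested, 12.1%, 15.0% and 16.0% had such a p. None of 18 tested genes of reactive astrocytes passed in limma in Prkci cKO, in Prkcz cKO or between the knockouts. Unadjusted limma p was at most 0.05 for 1, 6 and 2 of them, against 12.1%, 15.0% and 16.0% of all genes tested. In Prkcz cKO 14 of the 18 had values below 0, as did 51.8% of all genes tested. Among the 18, Osmr, a cytokine receptor subunit, had -0.51 in Prkcz cKO (limma adjusted p = 0.0978). Neural progenitor genes, which share Nes and Vim with vessels in development, had 0 of 15 called between the knockouts and a median of 0.13. An unadjusted limma p of at most 0.05 was found for 5 of the 15, against 16.0% of all genes tested. The neuron list had 0 of 18 called in each comparison. Its genes with an unadjusted limma p of at most 0.05 numbered 4, 1 and 4, against the same 12.1%, 15.0% and 16.0%.

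Markers outside these cell types also separated the groups. Summed immediate early genes were 1132 to 1911 in controls, 968 to 1107 in Prkci cKO and 881 to 1089 in Prkcz cKO. The striatum list, for tissue beneath the cortex, was 1620 to 2426, 1031 to 1542 and 1597 to 3022. Oligodendrocyte and myelin genes were 6129 to 9121 in controls, 3271 to 5158 in Prkci cKO and 4353 to 4797 in Prkcz cKO. Every control thus lay above every knockout animal in the early and the myelin sums, as it did for Gfap. In the striatum list every Prkci cKO animal lay below every Prkcz cKO animal, with a median log2 difference of -0.88 between the knockouts. The part of these lists in the results for Gfap, Nes and Vim was not tested.

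Of the rest of the filament system, little passed. Among 18 tested intermediate filament genes outside the 8, Bfsp2, which encodes a beaded filament protein of the eye lens, was the 1 that fell in Prkci cKO, from 4.96 to 2.61 on average (-0.81, SE 0.110, limma adjusted p = 0.00226). It had -0.38 in Prkcz cKO (adjusted p = 0.169). Desmin (Des), the filament of muscle, was low, at 1.46 in controls, 1.42 in Prkci cKO and 1.03 in Prkcz cKO, and had -0.35 in Prkcz cKO (adjusted p = 0.305). No gene of 15 filament linkers and chaperones, 23 genes of filament transport and phosphorylation or 17 genes of the neuronal microtubule system passed in any comparison. At an unadjusted limma p of at most 0.05, the linkers and chaperones had 2 in Prkci cKO, 1 in Prkcz cKO and 5 between the knockouts, the transport genes 1, 3 and 4, and the microtubule genes 4, 8 and 2. Of all genes tested, 12.1%, 15.0% and 16.0% had such a p in these comparisons. Furthest above that background were the 8 of 17 microtubule genes in Prkcz cKO and the 5 of 15 linkers and chaperones between the knockouts. The 4 of 17 microtubule genes in Prkci cKO followed. Cryab, a small heat shock chaperone of filaments, had -0.33 in Prkci cKO (adjusted p = 0.0556), and the plakin linkers Macf1, Plec and Dst had 0.43, 0.32 and 0.40 between the knockouts (adjusted p = 0.245, 0.251 and 0.271). Kif5a, the kinesin that carries neurofilaments along axons, had 0.39 (adjusted p = 0.286).

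Genes beside the members on the chromosome did not share the calls. Within 100 kb of the 8 genes 33 genes were tested, Nefl and Nefm among them as neighbours of each other, and none passed in any of the 3 comparisons (smallest limma adjusted p = 0.0857). Beside Nes, Bcan, a proteoglycan of the perineuronal matrix, had 0.12 between the knockouts and Crabp2, a low gene for a retinoic acid binding protein, 0.38 (adjusted p = 0.326 and 0.515).

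The genes whose levels over the 11 libraries were most like each member, among 12132 genes averaging 2 or more on the log2 scale, are given as a description, since they were picked for this likeness and share libraries and group differences with it. For Nes they were She (r = 0.95), Hip1 (0.95) and Cxcl12 (0.93), and for Vim Ltbp4 (0.95), Iqgap1 (0.94) and Slc12a7 (0.93). Cxcl12, a chemokine, and Ltbp4, a matrix protein that binds latent transforming growth factor beta, differed between the knockouts by 0.49 and 0.54 (limma adjusted p = 0.00890 and 0.00392). With group means removed, the likeness was 0.51 for Nes and Cxcl12 and 0.64 for Vim and Ltbp4. Gfap was most like Elovl5, a fatty acid elongase (r = 0.94; 0.94 with group means removed), which was lower in both knockouts (-0.22 and -0.25, adjusted p = 0.0181 and 0.0307). Synm was most like Esyt1 (0.94), Nefl like Ttl, the enzyme that adds tyrosine to tubulin (0.97), Nefm like Kcng4 (0.93), Nefh like the nicotinic receptor subunit gene Chrna5 (0.94) and Ina like Wdr82 (0.87).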

How the data were processed

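Total RNA of cortical punches was sequenced in 11 libraries described as biological replicates. Per the submitters' processing notes, FastQC, Trim Galore, STAR, RSEM and edgeR were used on GRCm38. Versions, annotation and strand setting: not given in the sources used here. Each value is a normalised signal, deposited with 2 decimals and adjusted for library size by the authors, and columns sum to 1021770 to 1082560. Depth was estimated from the steps of low values. Between 86.3% and 89.8% of values under 0.5 lay on a step, too few for a count test.

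Of 16228 genes, the 14330 reaching 1 in 3 or more libraries were tested. Values as log2(value + 0.5) entered one fit of all 11 libraries with limma 3.58.1 in R 4.3.3, with a term per genotype and a variance that follows the mean (8 residual degrees of freedom). Two-sided p-values were corrected by the Benjamini-Hochberg method across every gene tested, and 0.05 was the threshold. This scale understates changes of low genes. Errors are limma's standard errors or SDs over libraries. The limma p-values set each difference against the spread between these libraries, drawn toward a trend over all genes. Ratios and pairs of members were tested by exact permutation. Alternatives changed the pseudocount, filter, scaling, variance model, weights and samples fitted, added a replicate block, or left out 1 library at a time (for marker list counts this was chosen after seeing the data); the fit was checked on simulated data.

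The members and lists were chosen with earlier results of these data known. Named genes were the members, up to 4 genes per list with the smallest p, the 3 genes most like each member, genes within 100 kb of one, and the targets, of which a part is printed. Positions are those of GENCODE M21 and promoters those of RefSeq, both on GRCm38, and all 8 members matched by symbol.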

Additional observations from a re-analysis of the deposited data

Results flagged for a closer look

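The changes of Nes and Vim in Prkci cKO and in Prkcz cKO differed from each other, by 0.86 and 0.44 on the log2 scale (limma adjusted p = 0.00890 and 0.0139). Every Prkci cKO animal was above every Prkcz cKO animal for both genes. The log2 differences do not use the controls, but the fit behind these p-values includes them. With only the 2 groups compared, the limma adjusted p was 0.0103 for Nes and 0.0121 for Vim. In 16 groups of 4 animals checked, 1 had an animal apart from the rest: Nefm was 350.83 in Control replicate 2 and at least 397.71 in the other controls. Chance alone sets an animal apart in about 5% of such groups.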

How the results depend on the processing

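Between the knockouts, Nes was called in 23 of 23 alternatives (0.79 to 0.98) and Vim in 19 of 23. Members called in Prkcz cKO against controls numbered 1 in place of 0 with at least 1 in all libraries (Gfap), with array weights (Nes) and with the replicate block (Gfap, adjusted p = 0.0418), and 0 to 1 when each library was left out. Between the knockouts that range was 1 to 2, and for correlated pairs 0 to 1. The block changed no other member's call. Of 10 same-numbered pairs, 5 correlated above 0.1 (r = -0.19 to 0.20), and 6 of 11 libraries correlated best with their own number. Differently numbered pairs had r = -0.23 to 0.27. Whether libraries of one number share anything besides the number was not tested.

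Over all genes tested, calls in Prkci cKO against controls (230) numbered 346 with array weights, 132 with the f/f controls alone and 95 to 349 when each library was left out. In Prkcz cKO (93) they numbered 39 with all columns scaled to the same sum, 30 with no variance trend, 29 with only the groups compared, 59 with the f/f controls alone and 13 to 111 when each library was left out. Between the knockouts (43) they numbered 112 with array weights, 73 with the replicate block and 10 to 152 when each library was left out. The cause was not tested.

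Signs turned only for changes near 0, none of them called. In Prkci cKO, Synm had -0.000466 with array weights and -0.0261 to 0.0203 when each library was left out, and Nefh -0.0164 to 0.0766. In Prkcz cKO, Nefl had 0.0341 with scaled columns, 0.00554 with quantile normalization, 0.00627 with the replicate block and -0.0486 to 0.0468 when each library was left out. Nefh had 0.00831 with scaled columns, 0.0429 with the f/f controls alone and -0.0896 to 0.00338 when each library was left out. Ina had -0.000338 with array weights, -0.00293 with the f/f controls alone and -0.0207 to 0.0415 when each library was left out. Depth limits Nes most, with the fewest reads of the 8 genes.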
